A study of Mus musculus with 6 samples.

Results

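The stefins and cystatins are small proteins that block cysteine proteases, and 7 of their genes were followed among the 49585 gene IDs of an RNA-seq count table from mouse acute myeloid leukemia cells. They were taken by symbol: Stfa1, Stfa2, Stfa2l1 and Stfa3 of the stefin A family, Cstb (stefin B), Cst3 (cystatin C) and Cst7 (cystatin F). All 7 were found, and all 7 passed the filter on low counts that left 15812 genes for testing. Marrow from moribund mice whose leukemia was driven by the fusion KMT2A-MLLT3 was transduced with DOT1L, a histone methyltransferase, and cells expressing it at high or low level were sorted. The 6 libraries carry the labels DOT1L High, DOT1L Low and NT, each once for a leukemia named K3174 and once for one named K3117, so each group held 2 libraries. All were grown with interleukin 3, interleukin 6 and stem cell factor, and RNA was taken 3 days after the sort. The labels do not spell out NT or say whether its cells were transduced or sorted. Strain, age, vector and the species of the introduced DOT1L are likewise not stated there.

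Stefins lack a signal peptide and act mainly inside the cell, whereas cystatin C and cystatin F are made with one and enter the secretory pathway. Their targets are papain-like cathepsins of the lysosome. Cathepsin C is a target of cystatin F in immune cells, and it is the enzyme that activates the serine proteases of neutrophil granules, among them neutrophil elastase. In the mouse the stefin A gene has been copied many times in one cluster, and several of the copies are known as transcripts of neutrophils and their precursors.

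Total counts per library were between 22908445 and 33265848. All 9 markers of myeloid leukemia cells, Ptprc, Spi1, Cebpa and Hoxa9 among them, were counted at levels that could be tested. The mouse gene Dot1l was counted at 136 to 150 CPM (counts scaled to library size) in the libraries labelled High and at 128 to 158 CPM in those labelled NT, with a log2 fold change of -0.00 ± 0.15 (SE), so its count did not follow the labels; whether introduced DOT1L is counted under the mouse gene is not known. Levels below are CPM on TMM library sizes, which correct for differences in library makeup. Fold changes are from edgeR's quasi-likelihood test with the label and the leukemia as terms, and a gene was called when its p-value, adjusted over all 15812 genes by Benjamini-Hochberg, was below 0.05. Of the 9 myeloid leukemia markers, 5 were called higher and 2 lower in High than in NT. Over all genes tested, 10.0% were called higher and 7.32% lower. Mpo (log2 3.28) and Itgam (1.73) were among the higher ones, and Hoxa9 (-0.75) and Meis1 (-1.18) were the lower ones. Without the leukemia as a term, 1 was called higher.

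The 4 Stfa genes lie within one stretch of chromosome 16 in GRCm38 and face both ways: Stfa2l1 (ENSMUSG00000059657.4, chr16:36156811-36161953) and Stfa1 (ENSMUSG00000071562.5, chr16:36276951-36285373) on the plus strand, Stfa2 (ENSMUSG00000022902.7, chr16:36403992-36408457) and Stfa3 (ENSMUSG00000054905.2, chr16:36450537-36455392) on the minus strand. Cst3 (ENSMUSG00000027447.6, chr2:148871722-148875692, minus strand) and Cst7 (ENSMUSG00000068129.5, chr2:150570415-150578944, plus strand) are on chromosome 2. Cstb (ENSMUSG00000005054.6, chr10:78425669-78427622, plus strand) is on chromosome 10. All 7 are annotated as protein coding.

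The upstream sequences of the 4 Stfa genes, copies within one cluster, were compared after their changes were seen. RefSeq promoter entries (GRCm38.p6) matched 6 of the 7 members, all but Cstb. The 150 bases before the RefSeq start are given for the 4 Stfa genes, read along the gene, with capitals for runs of at least 10 bases that all 4 share within the 250 bases before the start. They span chr16:36276998-36277147 (plus strand), chr16:36408364-36408513 (minus), chr16:36156661-36156810 (plus) and chr16:36455393-36455542 (minus).
Stfa1: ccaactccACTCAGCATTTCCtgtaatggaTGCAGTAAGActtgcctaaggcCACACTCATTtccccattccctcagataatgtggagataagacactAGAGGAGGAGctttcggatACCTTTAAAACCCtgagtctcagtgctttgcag
Stfa2: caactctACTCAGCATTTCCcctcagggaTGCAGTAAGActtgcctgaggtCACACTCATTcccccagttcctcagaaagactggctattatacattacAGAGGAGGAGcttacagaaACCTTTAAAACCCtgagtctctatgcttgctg
Stfa2l1: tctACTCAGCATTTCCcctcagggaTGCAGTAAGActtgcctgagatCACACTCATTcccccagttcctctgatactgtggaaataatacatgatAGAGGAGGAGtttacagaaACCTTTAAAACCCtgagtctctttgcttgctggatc
Stfa3: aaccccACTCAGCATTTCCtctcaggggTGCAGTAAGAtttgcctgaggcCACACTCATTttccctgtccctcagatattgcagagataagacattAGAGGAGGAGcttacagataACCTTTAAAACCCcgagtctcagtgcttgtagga
In each gene 56 of the 150 bases fell in such runs, which stand in the same order and at nearly the same distance from the start. The run nearest the start, ACCTTTAAAACCC, begins at positions -36 to -32, counted from the start. Searched on both strands, that run was in 8 of 32851 promoter windows of 250 bases (0.0244%): the 4 Stfa genes and Csta3, Cstdc3, Cstdc4 and Gm7260, whose windows are in the same stretch of chromosome 16. The run ACTCAGCATTTCC, which begins at positions -147 to -142, was in 9 windows (0.0274%), and the shorter run AGAGGAGGAG in 268 (0.816%). Neither the Cst3 nor the Cst7 window held any of the 6 shared runs. Over the whole 250 bases, identity between pairs of Stfa windows was 80.2% to 89.4%, highest for Stfa2 and Stfa2l1, against 42.9% between Cst3 and Cst7. The spaced motif TTNNGNAA, a loose form of the site bound by C/EBP factors of granulocytes, had 1 match on either strand in the windows of Stfa1, Stfa2, Stfa2l1 and Cst7 and none in those of Stfa3 and Cst3, and 36.8% of all windows held it. Of the other 3 motifs searched on both strands, GAGGAAG had 1 match in Stfa1 alone of the 6 members (10.6% of all windows), AGATAAG had 1 each in Stfa1 and Stfa3 (2.74%), and TATAAA had none in the 6 (12.4%). The GENCODE models of Stfa1 and Stfa2 begin upstream of the RefSeq start: all 150 bases printed for Stfa1, and part of those for Stfa2, lie inside the gene model. A match is a run of letters and was not tested for binding. The runs were picked because all 4 Stfa genes share them, so they cannot show why these genes changed.

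The coding sequences of the 4 Stfa genes were compared in pairs. Stfa2 and Stfa2l1 were identical at 96.4% of 309 coding bases, Stfa2 and Stfa3 at 80.9%, and Stfa2l1 and Stfa3 at 81.6%. Stfa1 has a longer annotated coding sequence of 384 bases, and gaps count against identity here. Of 402 aligned columns, 57.2% (230 bases) were identical to Stfa2, 56.2% (226) to Stfa2l1 and 61.2% (246) to Stfa3. Stfa3 matched Stfa2 at 250 bases, so its lower percentage with Stfa1 goes with the gaps. Another cluster gene, BC100530, matched Stfa1 at 285 of its 291 coding bases. No stretch of 150 bases, the read length, was shared between a member's GENCODE transcripts and those of another gene. Of stretches of 50 bases, however, 22.5% in Stfa1, 15.9% in Stfa2 and 24.6% in Stfa2l1 were shared with another gene, and none in Stfa3, Cstb, Cst3 or Cst7. At 100 bases 5.07% in Stfa1 and 9.49% in BC100530 were shared, and none in the other members. No source used here says how the authors counted reads that fit several genes, so the separate values of Stfa1, Stfa2 and Stfa2l1 are uncertain and the 4 Stfa genes were also summed. That sum leaves out BC100530.

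All 4 stefin A genes rose in High against NT, Cst7 and Cst3 rose by less, and Cstb did not pass the test. The 4 Stfa genes together averaged 186 ± 91.9 CPM in High and 10.8 ± 9.38 CPM in NT (SD, n = 2 each), 20.7-fold (log2 4.37 ± 0.28 SE, edgeR adjusted p = 2.1e-06). At the other end, Cst3 was 1.66-fold higher and Cst7 2.399-fold higher. Of the 7 members 6 were called higher and 0 lower, where 10.0% of all genes tested were called higher and 7.32% lower. The median log2 fold change of the 7 was 3.99, against -0.01 for all genes tested. In bulk RNA, more cells of a type that makes these transcripts and more transcript per cell cannot be told apart.

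**Figure D1:**
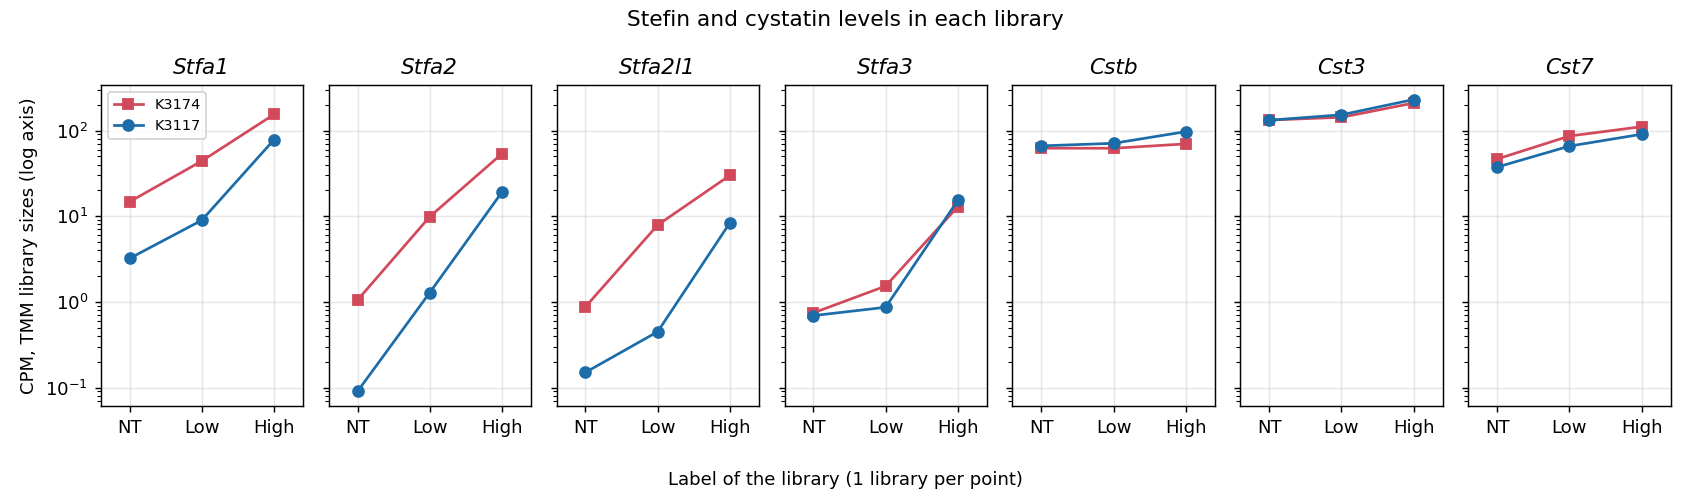
Level of each of the 7 genes in CPM (log axis) in the libraries labelled NT, Low and High, with 1 point per library and a line for each leukemia (K3174 squares, K3117 circles). The lines of the 4 Stfa genes climb over the labels in both leukemias, those of Cst3 and Cst7 climb less, and Cstb stays between 62.1 and 97.0 CPM.

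Stfa1 had the highest level per length of the 4 in every group. In K3174 the NT, Low and High libraries held 14.7, 44.1 and 154 CPM of Stfa1, and in K3117 they held 3.22, 8.96 and 78.1 CPM. Both High libraries were above all others, while NT of K3174 was above Low of K3117, so the Low and NT groups overlapped. High over NT was 15.9-fold (log2 3.99 ± 0.28, edgeR adjusted p = 3.6e-06).

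Stfa2 changed most. It was nearly absent from NT of K3117, with 3 counts, against 40 in Low and 429 in High of that leukemia, and K3174 had 24 counts in NT, 329 in Low and 1594 in High. That is 0.0901, 1.28 and 19.1 CPM in K3117 and 1.05, 9.86 and 53.6 CPM in K3174. Within K3117 the log2 difference of High minus NT was 6.91, with an exact 95% counting interval of 6.17 to 10.01, and within K3174 it was 5.58 (5.10 to 6.32). The fitted log2 fold change was 6.29 ± 0.40 (edgeR adjusted p = 1.9e-06), and Low and NT did not overlap for this gene.

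For Stfa2l1, the near copy of Stfa2, the NT, Low and High libraries of K3174 held 0.875, 7.88 and 30.0 CPM, and those of K3117 held 0.1502, 0.448 and 8.35 CPM. Between NT and Low the log2 difference was 3.07 in K3174, with an exact 95% counting interval of 2.515 to 3.906. In K3117 it was 1.24 (0.022 to 3.404), where the Low value rests on 14 counts and the NT value on 5. The intervals overlap. High over NT was 43.8-fold (log2 5.45 ± 0.48, edgeR adjusted p = 1.8e-05).

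Stfa3 took another course, with Low near NT. Its NT, Low and High values were 0.744, 1.53 and 12.9 CPM in K3174, and 0.691, 0.864 and 15.3 CPM in K3117. The 2 leukemias gave nearly the same levels of this gene, unlike the other 3. High over NT was 19.6-fold (log2 4.29 ± 0.31, edgeR adjusted p = 4.1e-06).

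Without the leukemia as a block the calls of Stfa1, Stfa2 and Stfa2l1 for High against NT were lost (adjusted p = 0.107, 0.0749 and 0.131), as was that of their sum with Stfa3 (log2 4.13, adjusted p = 0.0925), and 3 members stayed called, namely Stfa3, Cst3 and Cst7. Over all genes that fit called 493, against 2741 with the block.

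Cst7, a cystatin of leukocytes, rose with both labels. NT, Low and High of K3174 held 46.5, 86.3 and 111 CPM, and those of K3117 held 37.5, 65.8 and 90.5 CPM. Every Low library was above every NT library and below every High library. High over NT was 2.399-fold (log2 1.26 ± 0.12, edgeR adjusted p = 2.7e-05), and the differences within K3174 and K3117 were close, 1.25 and 1.27 on the log2 scale.

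Cst3, the widely expressed secreted inhibitor, was counted at 132, 143 and 209 CPM in the NT, Low and High libraries of K3174 and at 132, 153 and 230 CPM in those of K3117. The 3 groups did not overlap, but Low was near NT and High apart from both. High over NT was 1.66-fold (log2 0.73 ± 0.11, edgeR adjusted p = 0.00084).

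Cstb, a cytosolic inhibitor found in most cell types, was the member that was not called for High against NT. Its NT, Low and High libraries held 62.2, 62.1 and 69.8 CPM in K3174, and 66.2, 70.9 and 97.0 CPM in K3117. The log2 fold change was 0.36 with a 95% interval of 0.07 to 0.65 (edgeR adjusted p = 0.085). Leaving out NT of K3174 raised it to 0.48 and past the threshold (adjusted p = 0.012).

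Low against NT asks which of these changes were there at the lower label. Stfa2 (log2 3.25 ± 0.42), Stfa2l1 (2.79 ± 0.51), Stfa1 (1.53 ± 0.27) and Cst7 (0.85 ± 0.12) were called higher by edgeR's test, with adjusted p-values of 0.0016, 0.012, 0.010 and 0.0023. Those are 4 of the 7 members, where 2.05% of all genes tested were called higher and 1.29% lower, and 0 members were called lower. Stfa3 had 0.73 ± 0.35 (adjusted p = 0.42), Cst3 0.16 ± 0.11 (0.70) and Cstb 0.05 ± 0.13 (0.97). The summed Stfa genes averaged 37.5 ± 36.6 CPM in Low and 10.8 ± 9.38 CPM in NT (SD, n = 2 each), 3.26-fold (log2 1.71 ± 0.27, adjusted p = 0.0047). Within K3174 the log2 difference of Low minus NT was 1.86 for the sum, 1.58 for Stfa1 and 3.07 for Stfa2l1. Within K3117 it was 1.46, 1.46 and 1.24. In the fit without Low of K3174 the sum was at 1.13, Stfa1 at 1.06 and Stfa2l1 at 1.17, and none of them was called. DESeq2 with the block gave adjusted p-values of 0.057 for Stfa1 and 0.062 for Stfa2l1, and without the block edgeR called 0 members and 0 genes (2 members and 950 genes at an unadjusted p below 0.05).

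High against Low shows which members changed further between the sorted levels. Stfa3 had the highest fold change of the members here, 3.56 ± 0.29 on the log2 scale, followed by Stfa2 at 3.04 ± 0.30, Stfa2l1 at 2.67 ± 0.37 and Stfa1 at 2.46 ± 0.26, with edgeR adjusted p-values of 8.0e-05 to 0.0014. Cst3 was called as well (0.57 ± 0.11, adjusted p = 0.012), so 5 of 7 were called higher, where 4.12% of all genes tested were. Cst7 had 0.41 ± 0.12 (adjusted p = 0.071) and Cstb 0.31 ± 0.13 (0.26). The summed Stfa genes averaged 186 ± 91.9 CPM in High and 37.5 ± 36.6 CPM in Low (SD, n = 2 each). The log2 difference of High minus Low for this sum was 1.98 within K3174 and 3.38 within K3117. The call of Cst3 was lost when either High or either Low library was left out (adjusted p = 0.057 to 0.18). Cst7 was called when only the High and Low libraries were fitted (adjusted p = 0.00531), and Cst7 and Cstb each when either NT library was left out (without NT of K3174 or of K3117, 0.0041 or 0.0033 for Cst7 and 0.0446 or 0.0448 for Cstb). Without the block edgeR called 0 members and 0 genes (3 members and 1238 genes at an unadjusted p below 0.05).

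Low against NT, High against Low and High against NT share libraries. Side by side, Stfa3 had 0.73, 3.56 and 4.29 in these 3 contrasts, Cst3 had 0.16, 0.57 and 0.73, Stfa2 had 3.25, 3.04 and 6.29, and Cst7 had 0.85, 0.41 and 1.26. Most of the difference of Stfa3 and Cst3 thus lay between Low and High, and most of that of Cst7 between NT and Low, while Stfa2 was divided about evenly. Whether the genes differ in this was not tested.

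The leukemias differed in 3 of the members at equal label. K3174 against K3117 gave a log2 fold change of 2.60 ± 0.35 for Stfa2l1, 2.16 ± 0.28 for Stfa2 and 1.76 ± 0.22 for Stfa1 (edgeR adjusted p = 0.00057, 0.00044 and 0.00031). These are 3 of 7 called higher, where 3.05% of all genes tested were called higher and 6.32% lower. For K3174 against K3117 the summed Stfa genes had 17.4 against 4.15 CPM in NT, 63.3 against 11.6 in Low and 251 against 121 in High. Stfa3 did not pass (0.13 ± 0.24, adjusted p = 0.86), nor did Cst3 (-0.08 ± 0.09, 0.76), Cstb (-0.25 ± 0.11, 0.20) or Cst7 (0.33 ± 0.10, 0.052). Cst7 passed at 0.34 under DESeq2 (adjusted p = 0.040), under DESeq2's size factors in edgeR (0.046) and without the filter (0.039), and without NT of K3174 or of K3117 both Cst7 (0.35 each, adjusted p = 0.012 each) and Cstb (-0.32 or -0.33, adjusted p = 0.028 or 0.021) passed.

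How the summed Stfa counts were divided among the 4 genes also differed between libraries. Stfa1 made up 61.5% of the sum in High of K3174 and 64.6% in High of K3117, against 84.7% in NT of K3174 and 77.5% in NT of K3117. The share of Stfa2 was 21.4% (95% Wilson interval 20.5 to 22.3) in High of K3174 and 15.8% (14.5 to 17.2) in High of K3117, against 6.03% (4.09 to 8.82) in NT of K3174 and 2.17% (0.742 to 6.20) in NT of K3117. Stfa3 took 5.15% in High of K3174 and 12.7% in High of K3117, against 4.27% in NT of K3174 and 16.7% in NT of K3117. Its shares in Low were below both, 2.41% (1.84 to 3.16) in K3174 and 7.48% (5.19 to 10.66) in K3117. The intervals in NT were 2.68 to 6.73 in K3174, on 17 counts, and 11.37 to 23.77 in K3117. In K3174 those of Low and NT overlap. These intervals cover counting error only, and a share moves with how shared reads were assigned.

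**Figure D2:**
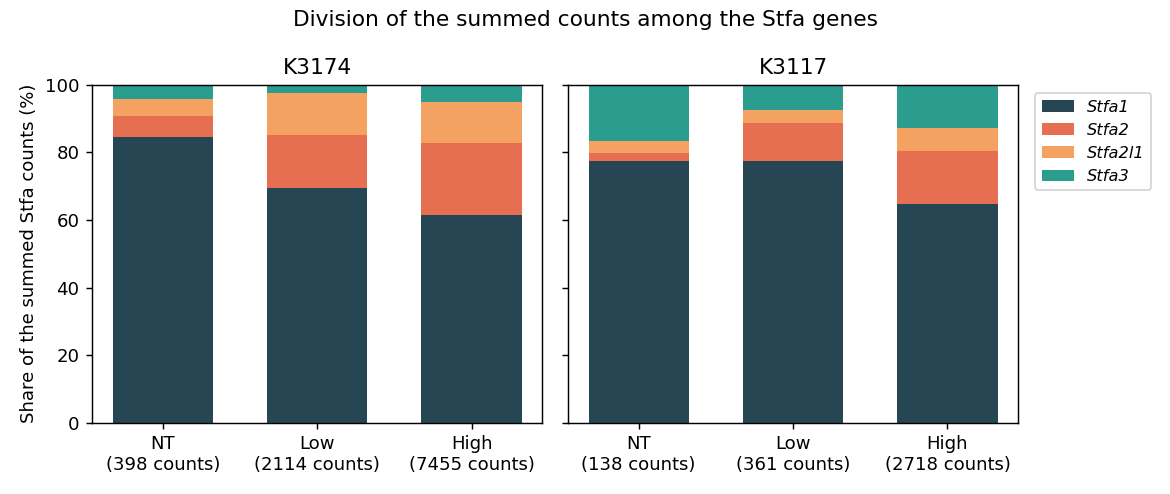
Share of the summed Stfa counts, in percent, taken by each of the 4 genes in the libraries labelled NT, Low and High, for K3174 (left) and K3117 (right), with the summed counts under each bar. The Stfa1 part is smaller and the Stfa2 part larger in High than in NT in both leukemias.

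Levels of different genes can be compared only per length. Per kilobase of the union of annotated exons, Cst3 was at 174 ± 11.6 CPM in High (SD, n = 2), Stfa1 at 164 ± 75.9, Cstb at 138 ± 31.9, Cst7 at 102 ± 14.6, Stfa2 at 77.2 ± 51.9, Stfa2l1 at 45.7 ± 36.5 and Stfa3 at 34.2 ± 4.07. Neighbours in this order from Cst3 to Cstb, and from Cst7 to Stfa3, did not differ beyond their spread. In NT the order was Cstb (106.5 ± 4.66) and Cst3 (104 ± 0.249), then Cst7 (42.6 ± 6.51), Stfa1 (12.65 ± 11.5), Stfa3 (1.74 ± 0.0902), Stfa2l1 (1.22 ± 1.22) and Stfa2 (1.21 ± 1.44). Stfa1 was thus among the abundant inhibitors in High and below Cstb, Cst3 and Cst7 in NT. The order depends on the length used. Per kilobase of the longest transcript, which is shorter for Cst3 (860 against 1266 bases) and Stfa1 (617 against 710), Cst3 averaged 256 CPM in High and 154 CPM in NT, and Stfa1 188 CPM in High. In High of K3174 Stfa1 was then above Cst3, which was at 243.6, and in High of K3117 Stfa1 was at 126.5 and Cst3 at 267.6.

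The other tested genes of the stefin A cluster were also higher in High than in NT, though not all in Low. Of 6 further cluster genes in the table, 4 could be tested, and all 4 were called higher in High than in NT, with a median log2 fold change of 4.28. Over all genes tested the share called higher was 10.0% there and 2.05% for Low against NT. Gm5483 (Cstdc4 in RefSeq) had 180 CPM in High of K3174 and 70.9 in High of K3117, against 9.84 in NT of K3174 and 3.996 in NT of K3117 (log2 4.21 ± 0.36, edgeR adjusted p = 1.5e-05). BC100530 (Cstdc5) had 103 and 50.4 CPM in High of K3174 and K3117, against 5.69 and 0.541 CPM in NT (5.15 ± 0.46, 2.0e-05). Both genes were higher in each High library than in any NT library. BC100530 matches Stfa1 at 285 of its 291 coding bases, so the separate values of BC100530 and Stfa1 are uncertain. Gm5416 (Csta3) had 21 counts in each High library, against 0 in NT of K3174 and 2 in NT of K3117. 2010005H15Rik (Csta2) had 4.74 CPM in High of K3174 and 3.60 in High of K3117, against 1.97 in NT of K3174 and 2.13 in NT of K3117 (1.00 ± 0.28, adjusted p = 0.031). That call was lost under DESeq2 (adjusted p = 0.097), when only High and NT were fitted (0.053) and when High or NT of K3174 was left out (0.22 and 0.18). BC117090, with at most 18 counts in a library, and Csta1, with 2 counts in all, were not tested. Without the block 0 of the 4 were called (adjusted p = 0.081 to 0.14). For Low against NT 2 of the 4 were called higher, BC100530 (2.18 ± 0.45, adjusted p = 0.022) and Gm5483 (1.63 ± 0.35, 0.029). 2010005H15Rik lay on the other side there, at -0.95 ± 0.31 (adjusted p = 0.15), with 1.23 CPM in Low of K3174 and 0.928 in Low of K3117, below both NT libraries. Its coding sequence is 96.9% identical to that of Gm5483, so their separate values are uncertain. Summing all 10 cluster genes gave a log2 fold change of 4.27 ± 0.30 for High over NT, close to the 4.37 of the 4 Stfa genes.

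The genes beside the cluster were not called higher in High than in NT. Between Csta1 and Stfa3, 8 genes were tested and 8 were called higher in High than in NT, with log2 fold changes of 1.00 to 6.29. Within 200 kb on either side, 8 genes were tested, of which 0 were called higher and 1, Parp9, a mono-ADP-ribosyltransferase family gene of the interferon response, was called lower (-1.06, edgeR adjusted p = 0.00021). Their log2 fold changes were between -1.06 and 0.57. Only Cd86, a costimulatory molecule of antigen-presenting cells, lay on the Stfa3 side, and the others lay on the Csta1 side. Cd86 had 25 to 84 counts in a library and a log2 fold change of 0.47 (edgeR adjusted p = 0.34). The Stfa3 side thus rests on 1 gene of low count. For High against NT 10.0% of all genes tested were called higher and 7.32% lower. Ccdc58, the tested gene nearest to the cluster, had -0.37 (adjusted p = 0.080). For High against Low 1 flanking gene was called higher, Cd86 (1.26, adjusted p = 0.035), where 7 of the 8 cluster genes were.

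**Figure D3:**
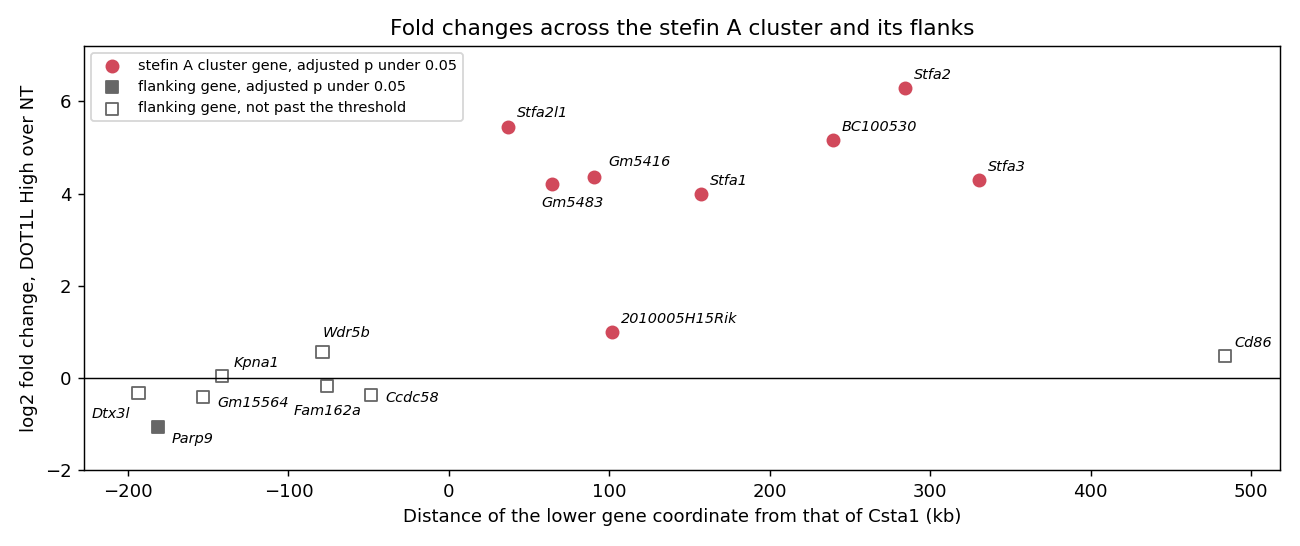
Log2 fold change of High over NT for tested genes of the stefin A cluster (circles) and within 200 kb of it (squares) against the distance in kb from the lower coordinate of Csta1. Filled symbols have an adjusted p below 0.05. The 8 cluster genes lie between 1.00 and 6.29 and the 8 flanking genes between -1.06 and 0.57.

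The rest of the cystatin superfamily was close to silent. Of 13 further genes in the table, among them Cst6, the kininogens and the fetuins, 10 had 0 counts in every library and 0 passed the filter on low counts.

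The cysteine proteases, the class these inhibitors bind, lay on both sides of 0. Of 11 cysteine proteases tested, 5 were called higher and 2 lower in High than in NT, with a median log2 fold change of 0.14, where 10.0% of all genes tested were called higher and 7.32% lower. The count of higher calls was 2 without High of K3117 and 3 without High of K3174, and that of lower calls was 1 without High of K3174, without either Low library, under DESeq2 and when only High and NT were fitted. Ctsh, an aminopeptidase cathepsin, had 128 CPM in High of K3174 and 106 in High of K3117, against 28.3 in NT of K3174 and 32.2 in NT of K3117 (log2 1.93 ± 0.17, edgeR adjusted p = 1.8e-05). Ctsc, the target of cystatin F, had 248 and 291 CPM in High of K3174 and K3117, against 155 and 184 CPM in NT (0.67 ± 0.11, 0.0017). Ctso was lower (-1.06 ± 0.20, 0.0033), and Ctsk, the bone collagenase, was higher at under 3 CPM (2.10 ± 0.50, 0.012), a call lost under DESeq2 (adjusted p = 0.0653) and without High or NT of K3117 (0.265 and 0.107). In Low against NT, 0 of the 11 were called higher and 1, Ctss, lower (-0.55 ± 0.13, edgeR adjusted p = 0.048). Ctss was among those called higher in High against NT (0.53 ± 0.13, adjusted p = 0.016).

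Among serine proteases that cathepsin C activates, most were higher with both labels. For High against NT 3 of 5 were called higher, with a median log2 fold change of 1.75, and for Low against NT 3 of 5, with 1.31. Over all genes tested the shares called higher were 10.0% and 2.05%. Elane, neutrophil elastase, had 1185 CPM in High of K3174 and 952 in High of K3117, against 233 in NT of K3174 and 59.4 in NT of K3117 (3.15 ± 0.30, edgeR adjusted p = 2.8e-05). Prss57 rose by 2.77 ± 0.15 (6.6e-07) and Prtn3, proteinase 3, by 1.75 ± 0.19 (5.8e-05). Ctsg, cathepsin G, had 0.17 ± 0.18 and Gzmb 1.59 ± 0.54, which did not pass. Without NT of K3174 all 5 were called.

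Other protease inhibitors of leukocytes went both ways. Of 19 tested, 6 were called higher and 3 lower in High than in NT, with a median log2 fold change of 0.08. The shares over all genes tested were 10.0% higher and 7.32% lower. The count of lower calls was 5 without NT of K3117, under library totals alone and without the filter, and 6 under upper quartile scaling. Wfdc21, a whey acidic protein family gene, had 51.1 CPM in High of K3174 and 48.8 in High of K3117, against 1.36 in NT of K3174 and 2.97 in NT of K3117 (4.44 ± 0.39, edgeR adjusted p = 1.7e-05). Serpinb10 rose by 2.89 ± 0.42 (0.00051). Serpinb9, the granzyme B inhibitor, was lower (-1.99 ± 0.24, 0.00014), as was Serpinb6b (-3.89 ± 0.56, 0.00052). Without the block 1 cysteine protease (Ctsh), 0 serine proteases and 1 other inhibitor (Wfdc21) were called.

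**Figure D4:**
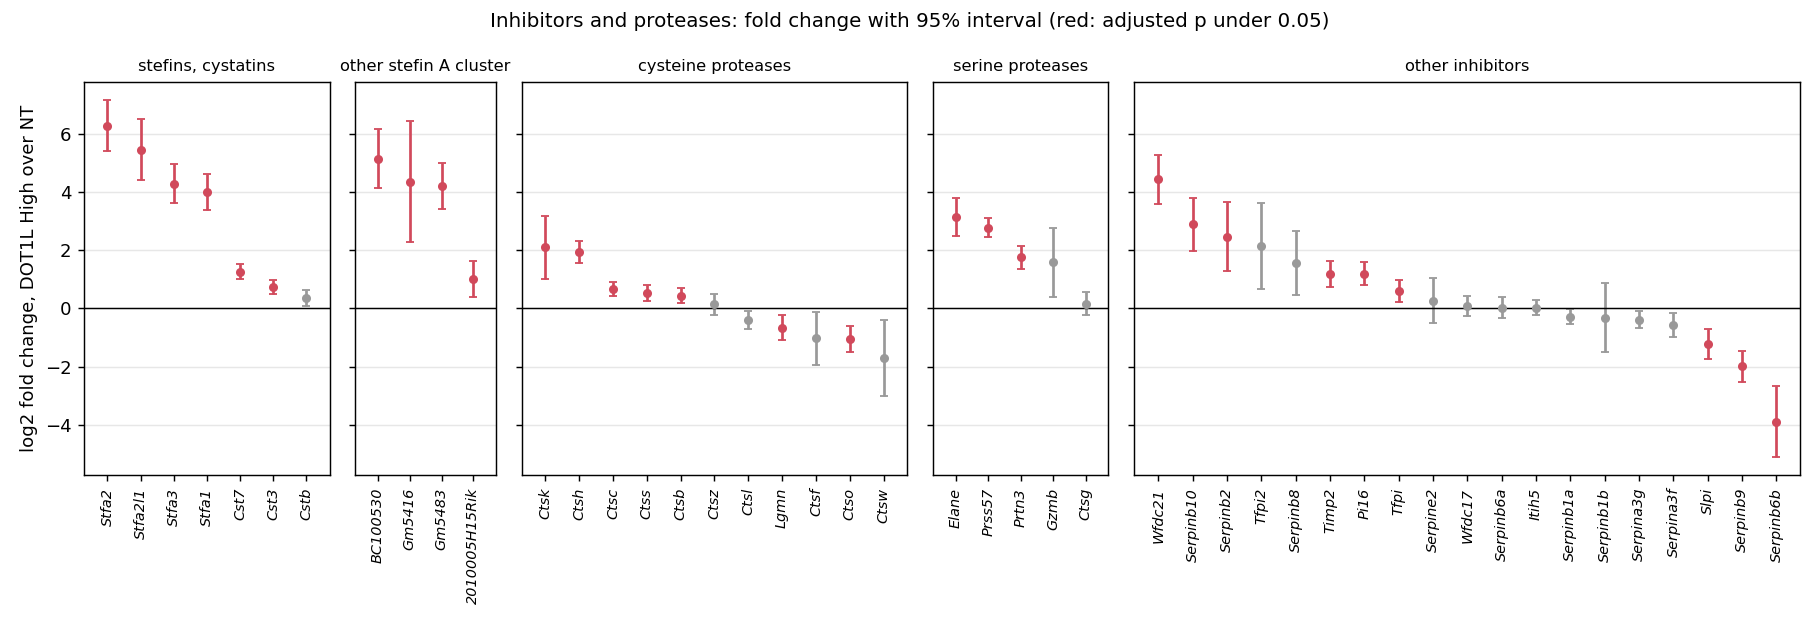
Log2 fold change of High over NT with its 95% interval for the tested genes of 5 lists: stefins and cystatins, other stefin A cluster genes, cysteine proteases, serine proteases and other leukocyte protease inhibitors. Red points have an adjusted p below 0.05. The 2 stefin groups lie above 0 throughout, and the cysteine proteases and other inhibitors lie on both sides of it.

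Most markers of late neutrophil development were higher in High as well. Of 13 tested, 12 were called higher in High than in NT, and the summed level of the 14 listed markers was 7443 CPM in High of K3174 and 1635 in High of K3117, 1340 in Low of K3174 and 115 in Low of K3117, and 158 in NT of K3174 and 25.8 in NT of K3117. The summed Stfa genes, at 251, 121, 63.3, 11.6, 17.4 and 4.15 CPM in the same libraries, put the 6 libraries in the same order. Both sums were higher in NT of K3174 than in Low of K3117, and both were higher in each library of K3174 than in the K3117 library of the same label. Camp, Itgb2l, Lcn2 and Ngp, the genes of this list with the smallest p, were higher by 5.21 to 7.49 on the log2 scale, whereas Retnlg, a marker of mature neutrophils, was counted at no more than 0.135 CPM in any library. Mmp8, a neutrophil collagenase, had 0.01 ± 0.27 (edgeR adjusted p = 0.99). For Low against NT 8 of the 13 were called higher, and Mmp8 (-0.67), Mmp9 (-0.46), Cxcr2 (-0.10), Ly6g (0.08) and Chil3 (0.97) did not pass. The share of all genes tested called higher was 10.0% for High against NT and 2.05% for Low against NT. The summed level was carried by a few abundant genes: S100a9, S100a8 and Ngp had 2439, 1818 and 1608 CPM in High of K3174. Without the block 2 of the 13 were called for High against NT, and Camp, Itgb2l and Ngp were lost (adjusted p = 0.13, 0.142 and 0.0983). The part of these markers in the result was not tested.

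**Figure D5:**
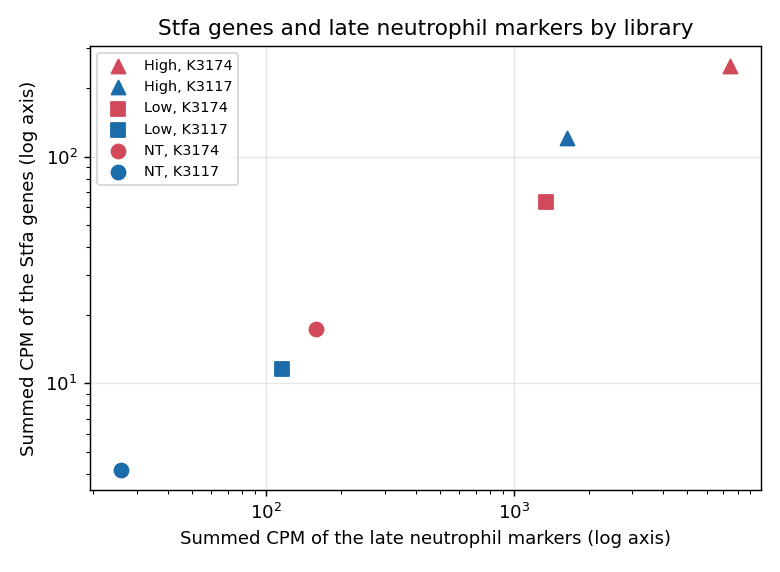
Summed CPM of the 4 Stfa genes against summed CPM of the 14 late neutrophil markers (log axes), 1 point per library, with triangles for High, squares for Low and circles for NT. Both sums place the libraries in the same order, with NT of K3117 lowest and High of K3174 highest.

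Keratinocytes and other epithelia also make stefin A. Of their 10 markers, Krt5, Krt14, Krt1 and Lor had 0 counts in every library, the summed level was 8.24 CPM in High of K3174 and 3.16 in High of K3117, against 11.1 in NT of K3174 and 10.9 in NT of K3117, and 0 were called higher and 3 lower. Monocyte and macrophage markers, which include cells rich in cystatin C and stefin B, summed to 2169 CPM in High of K3174 and 3125 in High of K3117, against 918 in NT of K3174 and 1534 in NT of K3117, with 5 of 10 called higher and 2 lower. Mast cell and basophil markers summed to 810 CPM in High of K3174 and 463 in High of K3117, against 195 in NT of K3174 and 120 in NT of K3117, and 5 of 7 tested were called higher. Of 6 dendritic markers tested, 0 were called higher and 4 lower. Beside these counts, 10.0% of all genes tested were called higher and 7.32% lower in High than in NT. B cell markers summed to at most 0.572 CPM in any library, erythroid markers to at most 4.13, and T and NK cell markers to at most 54.7, all but a trace of it Nkg7. Stromal and endothelial markers summed to 129 CPM in High of K3174 and 193 in High of K3117, against 169 in NT of K3174 and 213 in NT of K3117. Without the block 2 monocyte and macrophage markers and 1 mast cell and basophil marker were called higher, and 1 dendritic and 0 epithelial markers lower. Without High of K3174, 3 mast cell and basophil markers were called higher and 1 monocyte and macrophage marker lower, and without High of K3117, 1 epithelial marker lower. The CPM filter gave 3 mast cell and basophil markers higher, and 2 dendritic and 0 epithelial markers lower. The part of these cells in the result was not tested.

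Across the 6 libraries the members fell into patterns, given here as Pearson correlations of log2 CPM that share the libraries and their labels. Stfa1, Stfa2 and Stfa2l1 were alike at r = 0.98 to 0.99, and Stfa3 followed them at 0.84 to 0.87. Stfa3 was nearer to Cst3 (r = 0.97), and Cst7 nearer to Stfa2 (r = 0.97), while Cstb was farthest from the stefin A genes, with r = 0.30 to 0.40 for the first 3 and 0.71 for Stfa3. Among 9980 other genes with a mean of at least 5 CPM, the genes most like the Stfa sum were Myl12a (r = 0.9965), BC100530, Ube2q1, Vps53 and Lamtor2. Reads of BC100530 may be shared with Stfa1, which is part of that sum. Most like Cst7 were Trem3 (r = 0.9998), a receptor gene of myeloid cells, Glt1d1, Gfi1, a transcription factor of granulocyte development, Dgkg and Tbc1d2b. Most like Cst3 were Arhgap1 (r = 0.9921), Arl15, Aplp2, Pitpna and Ski. Most like Cstb were Lipa (r = 0.9869), the lysosomal acid lipase, Mrpl41, Svil, Dnajc15 and Fam3c. With 6 libraries many genes reach such values.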

How the data were processed

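RNA-seq was made from 6 libraries, read in pairs of 150 bases per the labels' protocols. The authors deposited whole-number counts per gene, used as deposited; 0 columns were left out. Per the submitters' processing notes, STAR, STAR-Fusion, kallisto, DESeq2 and mm10 were used, in roles not stated. What made the counts, its annotation and its strand setting: not given in the sources used here. Symbols came from a GENCODE table that matched 99.5% of IDs, positions and lengths from GENCODE annotation of GRCm38, promoters from RefSeq GRCm38.p6.

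Counts were fitted in R 4.3.3 with edgeR 4.0.16 (expression filter, 15812 genes; TMM; quasi-likelihood test; label and leukemia as terms; 2 residual degrees of freedom; Benjamini-Hochberg threshold 0.05 over all genes tested). DESeq2 1.42.0 was an alternative. Within-leukemia differences use a prior count of 2 and have no test, with 1 library per label. The pipeline was tested on simulated data. Python 3.11.15 did the rest.

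The leukemia was kept as a block because each K number gives 1 library of every label; that it marks 1 leukemia is read from the titles. Deviations from the label means correlated at 0.44 to 0.64 between libraries of the same K number. No label says that K numbers are separate mice, so p-values may cover only technical spread between these samples. Every pair of libraries differed by more than counting noise.

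The members and lists were chosen with earlier results of these data known. Named besides the members were up to 4 called genes per list with the smallest p for High against NT, the 5 genes most like each of 4 profiles, and the tested neighbours of the cluster, as counts. Parp9 and Ccdc58 were named after their values were seen, as were further markers and proteases named to show which did not pass. Alternatives changed the block, scaling, filter, tool, libraries, members of the sum, prior count (0.5) and gene length.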

Additional observations from a re-analysis of the deposited data

Results flagged for a closer look

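The difference of Low minus NT in Cstb had opposite signs in the leukemias: -0.0038 in K3174 and 0.099 in K3117 on the log2 scale. The difference between the leukemias was not tested, and the fitted Low against NT fold change of Cstb did not pass. Groups of 2 libraries are too small to single out a library by its distance from the rest.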

How the results depend on the processing

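Without the replicate block, edgeR called 493 genes and 3 members for High against NT, with the Stfa sum at 4.13 (adjusted p = 0.0925). The unblocked fit called 0 genes and 0 members for Low against NT, with the sum at 1.82 (0.92), and 0 genes and 0 members for High against Low, with the sum at 2.31 (0.617). The cause was not tested. DESeq2 called 2 members for Low against NT. With no filter on low counts 1071 genes were called for Low against NT and 1425 for High against Low. The CPM filter gave 568 for High against Low and 932 for K3174 against K3117. Fitting only the labels compared gave 881 for Low against NT and 1864 for High against Low.

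Leaving out each library in turn, the remaining library of its label being assumed to vary like the others, gave 1927 to 4394 genes for High against NT, 144 to 1483 for Low against NT, 335 to 1982 for High against Low and 829 to 2642 for K3174 against K3117. Members called ranged over 2 to 4 for Low against NT and 3 to 5 for K3174 against K3117. The Stfa sum for Low against NT ranged over 1.13 to 2.12. Cstb for Low against NT ranged over -0.0677 (without NT of K3117) to 0.1744, and Stfa3 for K3174 against K3117 over -0.15 (without Low of K3117; -0.13 without Low of K3174) to 0.5274, none of the negative values called. Of 378 refitted fold changes of members, 342 kept their direction and their side of the threshold, 20 lost the call, 13 gained one and 3 turned. The sum of all 10 cluster genes and a prior count of 0.5 changed no call or direction of the 4 contrasts or of the within-leukemia differences.

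Upper quartile scaling moved the median of all genes for High against NT to -0.11 on the log2 scale and the share of calls that were higher to 43.9%, library totals alone moved that share to 49.2%, and TMM gave 57.8%; every member kept its direction there. Depth limits Stfa2 and Stfa2l1 in NT of K3117, at 3 and 5 counts, and Gm5416 in NT.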
